A study of Homo sapiens with 12 samples.

Results

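TNFAIP3, which encodes A20, was examined together with 7 other genes that brake NF-κB signalling or carry the TNF-α-induced protein (TNFAIP) name, namely TNIP1, TNIP2, TNIP3, CYLD, OTULIN, TNFAIP2 and TNFAIP8. These 8 genes were taken by symbol from the 58278 genes listed in each library, and all 8 were among the 24342 genes kept for testing. They were chosen by name, with no threshold on a measured value, but with earlier results of these data known. RNA came from HK2 cells, immortalized epithelial cells of the human proximal tubule, in 12 libraries of 6 groups with 2 biological replicates each. Ctrl cells were untreated. TN cells received TNF-α at 5 ng/mL for 3 h. PRTN and BUTN cells were kept for 24 h with 15 mM propionate or 3 mM butyrate, both short-chain fatty acids (SCFAs), and then received the same TNF-α, whereas TNPR and TNBU cells received that TNF-α first and the SCFA for 24 h afterwards. Each SCFA group therefore carried TNF-α as well, propionate and butyrate were given at different doses, and cells given an SCFA without TNF-α or kept on for 24 h after TNF-α without an SCFA were not analysed here, so the SCFA and the added time cannot be told apart. The general treatment text of the labels names other compounds (thapsigargin and JQ1), while TNF-α and the SCFA stand in the source label of every treated library.

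TNF-α bound to its receptor leads to the building of ubiquitin chains, linear ones among them, on the receptor complex, on which the kinases that release NF-κB assemble. A20 is an enzyme that edits and caps these chains, and its own gene is a classical NF-κB target, so that it closes a negative feedback loop. TNIP1, TNIP2 and TNIP3 encode the ABIN proteins, ubiquitin-binding partners of A20, while CYLD and OTULIN are deubiquitinases that take ubiquitin chains apart. TNFAIP2 and TNFAIP8 were named as TNF-α-induced transcripts and are not part of the A20 complex.

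The expected counts of a library came to between 27269986 and 33851130, at which 3 counts correspond to 0.0867 to 0.112 CPM, the count per library size after scaling by the trimmed mean of M values (TMM). The median gene differed between replicates by 0.116 to 0.153 on the log2 scale in Ctrl, TN, PRTN and BUTN, and by 0.201 in TNPR and 0.232 in TNBU. The markers of the proximal tubule LRP2 and HNF4A were at 0 in Ctrl and TN, and ANPEP and SLC34A1 did not exceed 0.0702 CPM there, whereas GGT1 had 221 CPM and PAX8 364 CPM in Ctrl. PTPRC, a marker of all leukocytes, did not exceed 0.0905 CPM in any group. Differences between groups were tested with limma-voom over all 12 libraries. A gene was called where its fold change was above 1.5 and its p, adjusted over all tested genes by the Benjamini-Hochberg method, was below 0.05, and SE is the standard error of a log2 fold change.

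The start regions of the members carried binding motifs in an uneven way. NF-κB binds a degenerate 10-base element, the κB consensus, and it was searched on both strands of the RefSeq promoters of GRCh38.p14, each running from 250 bases before to 50 bases after a start. All 8 members matched the table, with 15 promoters, of which 6 held the consensus, compared with 5.91% of all 35116 promoters. Those 6 belonged to TNFAIP3, TNIP1, TNIP3 and CYLD, and TNFAIP3 was the member with a pair of matches in a single promoter. No match was found in these windows for TNIP2, OTULIN, TNFAIP2 or TNFAIP8. Stretches of 4 of these 6 promoters are shown, 1 for each of the 4 genes. TNFAIP3, TNIP1 and CYLD were chosen because they share one and the same 10 letters, GGGACTTTCC, in one or the other orientation, a string found in 67 of the 35116 promoters (0.191%), and TNIP3 is shown at its outermost start. The matches at a further start of TNIP3 (GGGAAATCCC, -61 to -52) and of CYLD (GGGGCTTCCC, 1 to 10) are not shown in their stretches. Capitals mark the κB match, and each stretch is read 5′ to 3′ on the strand of its gene.
TNFAIP3, chr6:137867114-137867213, plus strand, with matches at -67 to -58 and -55 to -46 from the start: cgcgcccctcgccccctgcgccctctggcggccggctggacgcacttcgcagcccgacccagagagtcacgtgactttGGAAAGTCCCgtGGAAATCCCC
TNIP1, chr5:151081057-151081086, minus strand, with a match at -42 to -33 from the start: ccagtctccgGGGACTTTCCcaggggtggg
CYLD, chr16:50741866-50741965, plus strand, with a match at -189 to -180 from the start: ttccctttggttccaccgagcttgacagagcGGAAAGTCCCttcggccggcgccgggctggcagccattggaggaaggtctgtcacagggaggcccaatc
TNIP3, chr4:121227484-121227583, minus strand, with a match at -62 to -53 from the start: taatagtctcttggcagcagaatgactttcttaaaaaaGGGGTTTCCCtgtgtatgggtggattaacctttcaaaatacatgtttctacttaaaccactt
Of the 30 bases shown for TNIP1, 28 lie in an annotated exon, and the other stretches hold no annotated exon. A match is a string of letters and was not measured as a binding site.

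The first comparison asked what TNF-α alone changed. TNFAIP3 (ENSG00000118503.14, chromosome 6, 137867214 to 137883314 of GRCh38, plus strand) had 109 and 112 CPM in the Ctrl libraries and 480 and 498 CPM in TN. Both TN libraries lay far above both Ctrl libraries, and replicates differed by at most 1.04-fold. Its log2 fold change was 2.15 (SE 0.06, adjusted p = 1.25e-09), a 4.43-fold rise and the smallest p of all 24342 genes. TNIP1 (ENSG00000145901.14, chromosome 5, 151029945 to 151093577, minus strand), which encodes the A20 partner ABIN-1, had 317 and 308 CPM in Ctrl and 489 and 522 CPM in TN. This 1.62-fold rise (log2 0.69, SE 0.07, adjusted p = 0.000149) lay just above the threshold of 1.5-fold. TNFAIP2 (ENSG00000185215, chromosome 14, 103121476 to 103137439, plus strand), whose product takes part in the formation of thin membrane tubes between cells, stood at 237 and 229 CPM in Ctrl and at 554 and 621 CPM in TN. It rose 2.52-fold (log2 1.33, SE 0.25, adjusted p = 0.0122), and with any one of the 4 Ctrl and TN libraries left out the log2 fold change stayed between 1.25 and 1.41 while its adjusted p came to between 0.0743 and 0.106. With the libraries of TNPR and TNBU left out of the model, chosen after seeing the data, the value was 1.35 (adjusted p = 8.32e-07).

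The remaining members were not called in TN vs Ctrl. CYLD (chromosome 16, 50742050 to 50801935, plus strand) was the nearest, with 28.3 and 30.6 CPM in Ctrl and 46.5 and 41.7 CPM in TN. Its log2 fold change of 0.58 (SE 0.07, adjusted p = 0.000975) missed the threshold of 0.585 by a margin smaller than its error, with DESeq2 placing it at 0.59. With any one of the Ctrl and TN libraries left out, it lay between 0.50 and 0.66. TNFAIP8, the founding member of the TIPE family of lipid-binding proteins, had 24.4 and 21.9 CPM in Ctrl and 29.9 and 27.6 CPM in TN (log2 0.31, 95% interval 0.11 to 0.51, adjusted p = 0.0935). TNIP2 had 44.8 and 45.7 CPM in Ctrl and 45.7 and 50.2 CPM in TN (log2 0.08, interval -0.07 to 0.24), and OTULIN, which removes linear chains, had 34.5 and 37.4 CPM against 39.0 and 34.8 CPM (log2 0.04, interval -0.18 to 0.25). The upper bounds of these 3 intervals lay below 1.5-fold (0.585 on the log2 scale). TNIP2 lies on chromosome 4 (2741648 to 2756342, minus strand), and OTULIN (14664664 to 14699850) and TNFAIP8 (119268692 to 119399688) lie on the plus strand of chromosome 5. TNIP3 (chromosome 4, 121131408 to 121227466, minus strand) was close to undetected, with 0 and 2 counts in Ctrl and 8 and 4 in TN. In all, 3 of the 8 members rose and 0 fell in TN vs Ctrl, where 0.764% of all tested genes rose and 0.534% fell. TNFAIP genes were named for their induction by TNF-α, and the paper on these libraries reports TNIP1 among the induced genes. This count was therefore partly fixed beforehand. The median log2 fold change of the 8 members was 0.64, and that of all genes was -0.01.

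**Figure D1:**
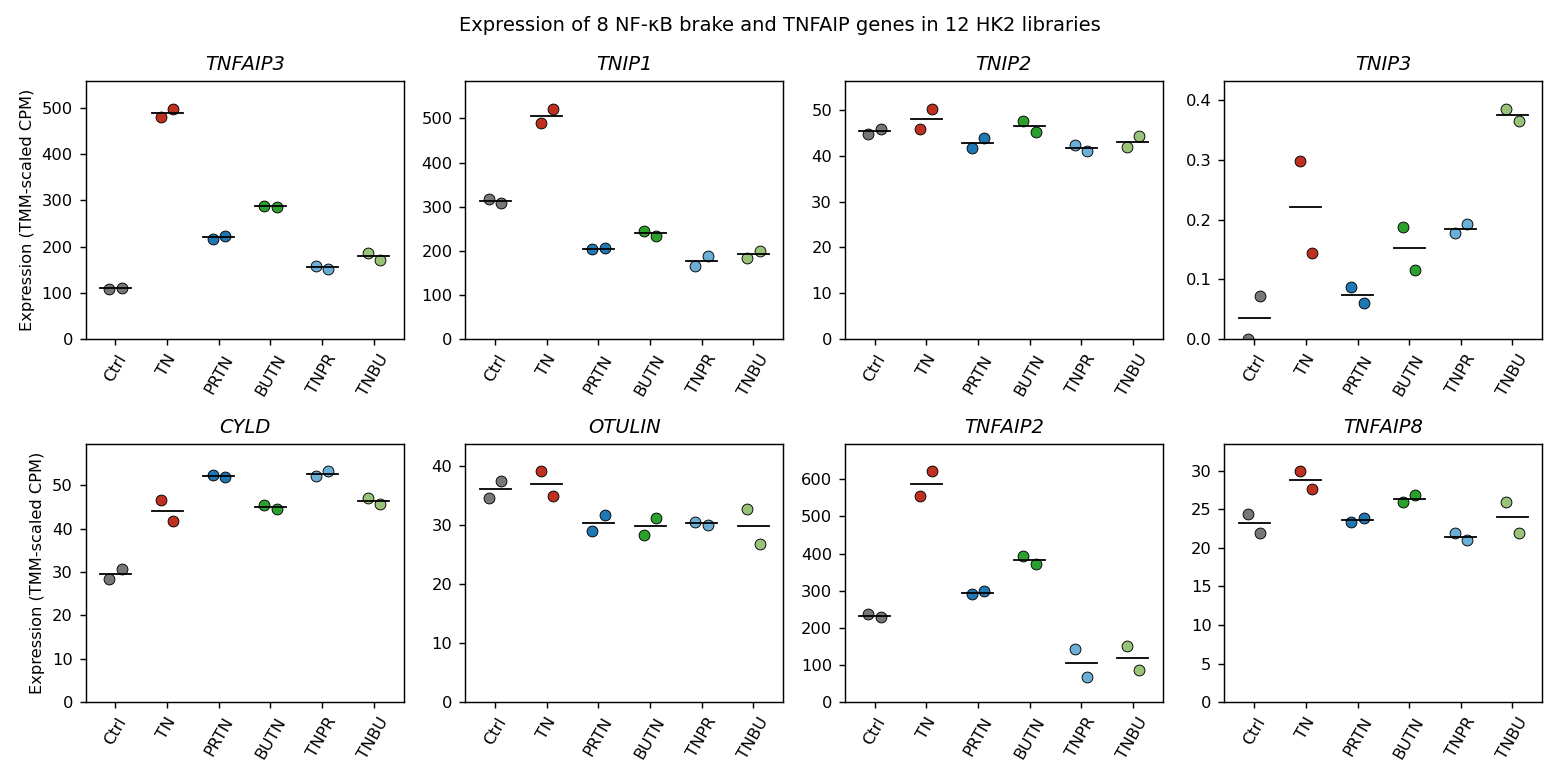
Expression in TMM-scaled CPM (linear axis from 0, own scale in each panel) of the 8 members in the 6 groups. Each point is a library and the line is the mean of 2 replicates, with TNFAIP3 at 110 CPM in Ctrl and 489 CPM in TN, and with the TNFAIP2 replicates of TNPR (144 and 66.4 CPM) and TNBU (152 and 87.1 CPM) apart.

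Levels of different members can be set side by side only per length of transcript. As CPM per kilobase of annotated exon, TNIP1 stood at 53.9 and TNFAIP2 at 46.1 in Ctrl, whereas TNFAIP3 and TNIP2 both stood at 17.1, OTULIN at 4.11, TNFAIP8 at 2.72 and CYLD at 2.27. In TN the level of TNFAIP3 per kilobase was 75.9, close to the 87.2 of TNIP1, and TNFAIP2 reached 116. The exon length is that of all annotated transcripts together, so a gene with long exons that HK2 cells do not use is understated.

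The next comparisons set each SCFA group against TNF-α alone, and 3 of the 8 members, TNFAIP3, TNIP1 and TNFAIP2, fell against TN in all 4 SCFA groups, with 0 higher. TNPR and TNBU cells were harvested a further 24 h after TNF-α, so in their comparisons with TN the SCFA and the time cannot be told apart. The 4 comparisons share the TN libraries. A large part of all genes was called as well, so the count itself says little: 16.7% of the tested genes were lower and 23.9% higher in PRTN vs TN, 14.8% lower and 23.1% higher in BUTN vs TN, 16.9% lower and 24.9% higher in TNPR vs TN, and 16.5% lower and 25% higher in TNBU vs TN. The 8 members had a median log2 fold change of -0.64 in PRTN vs TN, -0.39 in BUTN vs TN, -0.35 in TNPR vs TN and -0.29 in TNBU vs TN, beside medians of all genes from 0.079 to 0.118. With library size alone as the scaling, the medians of all genes moved up by 0.153 to 0.196. A lower level in bulk RNA can come from fewer cells that express a gene or from less RNA in each, and these cannot be told apart.

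TNFAIP3 had 217 and 224 CPM in PRTN, 288 and 286 CPM in BUTN, 159 and 153 CPM in TNPR and 186 and 172 CPM in TNBU. Every SCFA library lay between the Ctrl and the TN libraries, and no 2 groups overlapped. Against TN it was lower by a log2 fold change of -1.15 in PRTN (adjusted p = 4.3e-09), -0.77 in BUTN (adjusted p = 1.3e-07), -1.65 in TNPR (adjusted p = 4.51e-10) and -1.45 in TNBU (adjusted p = 1.04e-09), each with an SE of 0.05. In order from the lowest, the levels were those of Ctrl, TNPR, TNBU, PRTN, BUTN and TN, and among neighbours TNPR and TNBU did not differ at an adjusted p under 0.05 (log2 -0.19, 95% interval -0.32 to -0.07, adjusted p = 0.385), while TNBU was not tested against PRTN. The level with an SCFA was therefore below that of TNF-α alone but above that of untreated cells: TNFAIP3 was higher than in Ctrl by 1.00 in PRTN, 1.38 in BUTN and 0.69 in TNBU on the log2 scale, and these 3 were called. In TNPR the difference was 0.50 (1.42-fold, adjusted p = 1.11e-05), which did not reach the fold threshold.

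TNIP1 took another place relative to untreated cells. It had 205 and 206 CPM in PRTN, 246 and 234 CPM in BUTN, 165 and 189 CPM in TNPR and 185 and 201 CPM in TNBU, and each of these libraries was below both Ctrl libraries. Against TN its log2 fold change was -1.30 for PRTN, -1.08 for BUTN, -1.52 for TNPR and -1.39 for TNBU (SE 0.07 each, adjusted p from 3.84e-09 to 6.86e-08). Against Ctrl it was called lower in PRTN (-0.60, adjusted p = 1.08e-05), TNPR (-0.82, adjusted p = 7.28e-07) and TNBU (-0.69, adjusted p = 3.55e-06), whereas the value in BUTN was -0.38 (adjusted p = 0.000479), under the fold threshold. The call in PRTN was at the edge of the threshold, with -0.58 by DESeq2 and -0.50 with library size alone, and the latter scaling gave -0.55 in TNBU.

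TNFAIP2 had 292 and 298 CPM in PRTN and 392 and 372 CPM in BUTN, between the Ctrl and the TN libraries. After TNF-α, by contrast, it had 144 and 66.4 CPM in TNPR and 152 and 87.1 CPM in TNBU, so that all 4 libraries lay below Ctrl but the replicates differed by 2.16-fold and 1.75-fold. Of the 10194 genes at 10 CPM or more, 0.196% differed more between the TNPR replicates than TNFAIP2 did, and 0.402% between those of TNBU. The fall against TN had a log2 fold change of -2.58 (SE 0.27, adjusted p = 3.37e-06) in TNPR and -2.35 (SE 0.26, adjusted p = 7.86e-06) in TNBU, against -0.99 (SE 0.25, adjusted p = 0.00419) in PRTN and -0.62 (SE 0.24, adjusted p = 0.0467) in BUTN. The call in BUTN vs TN was lost by edgeR (adjusted p = 0.0758) and by DESeq2 (0.202). It was also lost without any single BUTN or TN library, with log2 fold changes from -0.73 to -0.56. A limma-voom fit without TNPR and TNBU gave -0.64 (adjusted p = 2.06e-06). That fit was chosen after seeing the data and drops the groups whose TNFAIP2 replicates differed most, so it is no separate support. Against Ctrl, TNFAIP2 was lower in TNPR (-1.25, adjusted p = 0.00189) and TNBU (-1.02, adjusted p = 0.00691), higher in BUTN (0.71, adjusted p = 0.032) and at 0.34 (adjusted p = 0.283) in PRTN. Without TNPR replicate 2 the value in TNPR vs Ctrl was -0.70 (adjusted p = 0.0178), and without TNPR replicate 1 it was -1.84. Without TNBU replicate 2 the value in TNBU vs Ctrl was -0.61 (adjusted p = 0.0898), and the call in BUTN vs Ctrl was lost without any single Ctrl or BUTN library (adjusted p from 0.0859 to 0.133).

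**Figure D2:**
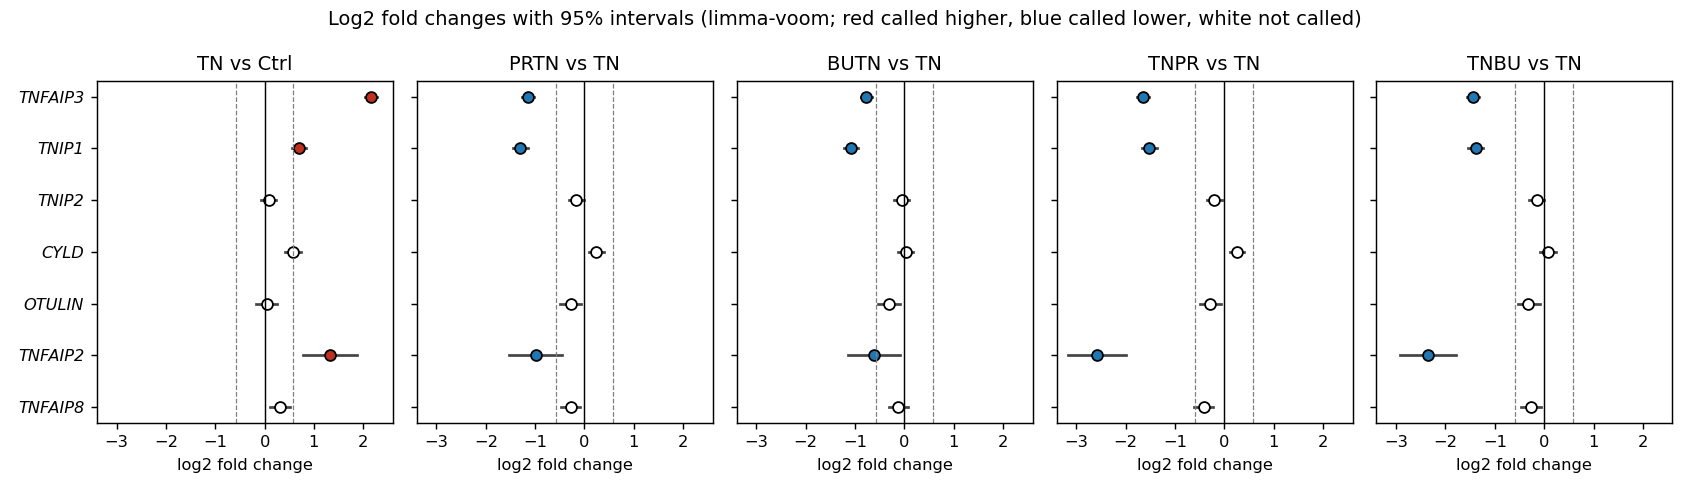
Log2 fold changes of 7 members in TN vs Ctrl and in each SCFA group against TN, with 95% intervals (horizontal lines) and the threshold of 1.5-fold (dashed lines). TNFAIP3, TNIP1 and TNFAIP2 are called higher in TN vs Ctrl (red) and lower in all 4 SCFA groups against TN (blue), and the points of the other members lie between the dashed lines. TNIP3, with at most 11 counts in a library, is not drawn.

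The deubiquitinase CYLD did not fall in any of the 4 comparisons. It had 52.4 and 51.9 CPM in PRTN, 45.4 and 44.6 CPM in BUTN, 52.1 and 53.2 CPM in TNPR and 47.0 and 45.6 CPM in TNBU, all above both Ctrl libraries. Against TN its log2 fold change was 0.24 in PRTN (adjusted p = 0.00898), 0.03 in BUTN (adjusted p = 0.721), 0.26 in TNPR (adjusted p = 0.00637) and 0.07 in TNBU (adjusted p = 0.404), all under the fold threshold, and the 95% intervals reached no lower than -0.12. Against Ctrl it rose in all 4 SCFA groups, by 0.82 for PRTN, 0.61 for BUTN, 0.84 for TNPR and 0.65 for TNBU (SE 0.07 each, adjusted p from 7.08e-07 to 1.42e-05). In BUTN it fell below the threshold of 1.5-fold without Ctrl replicate 1 (0.56) or BUTN replicate 1 (0.57).

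OTULIN, TNIP2 and TNFAIP8 moved by less than 1.5-fold in every comparison. In TMM-scaled CPM, OTULIN ranged from 26.8 to 32.7 over the 8 SCFA libraries and from 34.5 to 39.0 over those of Ctrl and TN. Its log2 fold change against TN lay between -0.28 and -0.32 (SE 0.10 each, adjusted p from 0.0181 to 0.0288), and in each of the 4 comparisons leaving out TN replicate 1 brought the adjusted p above 0.05. In the same 4 comparisons the median of 10 housekeeping genes lay between -0.22 and -0.27, near the values of OTULIN. TNFAIP8 was at -0.42 in TNPR vs TN (adjusted p = 0.00166), -0.28 in PRTN (0.0174), -0.27 in TNBU (0.023) and -0.12 in BUTN (0.262). TNIP2 kept to between 41.1 and 50.2 CPM over all 12 libraries, and its lowest value against TN was -0.20 in TNPR (adjusted p = 0.0268).

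TNIP3, which encodes the inducible partner ABIN-3, had 3 and 2 counts in PRTN and 6 and 4 counts in BUTN. After TNF-α there were 6 counts in each TNPR library and 11 in each TNBU library. The ratio of the summed counts to those of Ctrl, per scaled library, was 10.7 in TNBU (exact 95% counting interval 2.63 to 93.8) and 5.26 in TNPR (1.17 to 48.4), compared with 6.25 in TN (1.39 to 57.5). It was called higher than Ctrl in TNBU (adjusted p = 0.00252) and in TNPR (adjusted p = 0.0243), and all of these ratios rest on 2 counts in Ctrl. Without Ctrl replicate 1 the fitted log2 fold change in TNBU vs Ctrl went from 3.32 to 2.13 (adjusted p = 0.0417). The call in TNPR was lost without Ctrl replicate 1 (adjusted p = 0.263), without TNPR replicate 2 (0.0586) and by DESeq2 (0.184).

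Set against untreated cells, 2 members were higher and 1 lower in PRTN, where 22.6% of all tested genes were higher and 16.9% lower. In BUTN, 3 members were higher and 0 lower (all genes 22% and 14.9%). In TNPR, 2 were higher and 2 lower (23.6% and 16.8%), and in TNBU 3 were higher and 2 lower (23.6% and 16.5%). These 4 comparisons share the Ctrl libraries. The members that rose above Ctrl in at least one SCFA group were TNFAIP3, CYLD, TNIP3 and TNFAIP2, and those that fell below it were TNIP1 and TNFAIP2. The rises of TNIP3 in TNPR and TNBU rest on 2 counts in Ctrl. The rise of TNFAIP2, in BUTN, was not called by DESeq2 (log2 0.74, adjusted p = 0.108). In BUTN vs Ctrl, edgeR and DESeq2 also called 0 members lower, and 2 members, TNIP1 and OTULIN, were lower at an unadjusted p under 0.05. In either direction, 14200 of the 24342 genes had an unadjusted p under 0.05 in that comparison.

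Ratios of the counts of 2 genes within a library do not depend on how libraries are scaled. In the Ctrl libraries there were 0.343 and 0.363 TNFAIP3 counts per TNIP1 count, and in TN 0.968 on average (SD 0.0205). With an SCFA it was 1.07 (SD 0.0225) for PRTN, 1.20 (SD 0.0373) for BUTN, 0.888 (SD 0.111) for TNPR and 0.928 (SD 0.105) for TNBU, or 2.51 to 3.40 times its Ctrl value. TNFAIP3 per NFKBIA, the inhibitor IκBα that is the other classical feedback target, was 0.582 (SD 0.0212) in Ctrl, 1.56 (SD 0.0189) in TN, 1.75 (SD 0.0232) for PRTN, 2.09 (SD 0.0818) for BUTN, 1.95 (SD 0.365) for TNPR and 2.17 (SD 0.243) for TNBU. TNFAIP3 per CYLD was 3.75 (SD 0.141) in Ctrl, 11.1 (SD 1.14) in TN, 4.23 (SD 0.139) for PRTN, 6.38 (SD 0.0497) for BUTN, 2.97 (SD 0.121) for TNPR and 3.86 (SD 0.131) for TNBU. CYLD per OTULIN was 0.819 (SD 0.000348) in Ctrl and 1.20 (SD 0.00354) in TN and stood between 1.52 and 1.74 in the SCFA groups. These ratios of 2 replicates each were not tested.

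**Figure D3:**
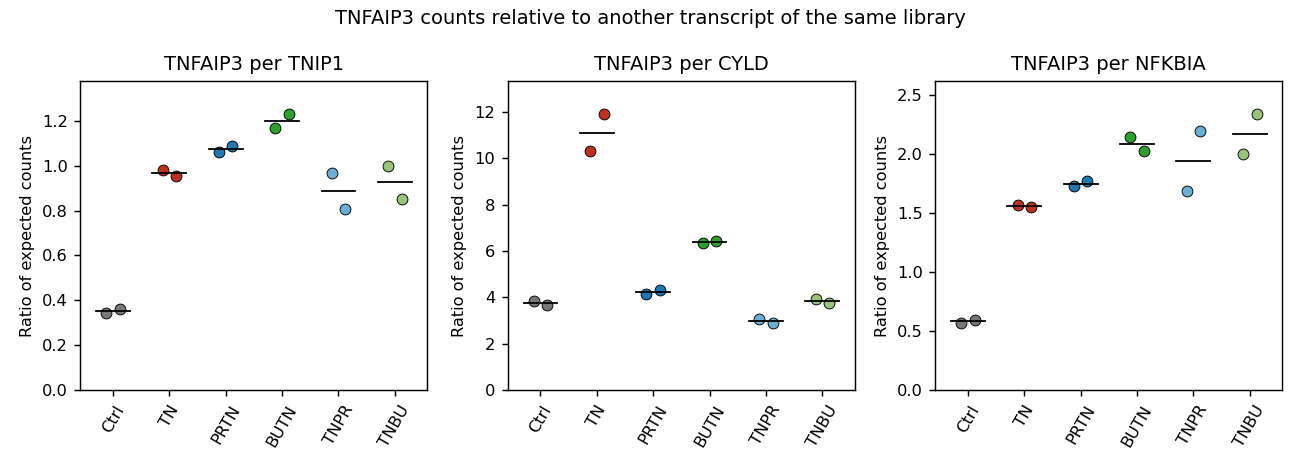
Ratio of the expected counts of TNFAIP3 to those of TNIP1, CYLD and NFKBIA in each library (points) with the mean of 2 replicates (lines), on linear axes from 0. TNFAIP3 per TNIP1 stands at 0.353 in Ctrl and between 0.888 and 1.20 in the 5 treated groups, whereas TNFAIP3 per CYLD stands at 11.1 in TN and at 2.97 to 6.38 with an SCFA.

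Propionate and butyrate were compared at matched times but at 15 mM and 3 mM. Between PRTN and BUTN 0 of the 8 members were called by limma-voom, edgeR or DESeq2 (0.168% of all genes by limma-voom). An unadjusted p under 0.05 was found for 3 members and for 3418 of the 24342 genes. TNFAIP3 was lower in PRTN than in BUTN by a log2 fold change of -0.38 (SE 0.05, adjusted p = 0.0175), with PRTN at 217 and 224 CPM and BUTN at 288 and 286 CPM, a difference of 1.30-fold under the fold threshold. Its adjusted p was above 0.05 without any single PRTN or BUTN library (up to 0.29, value from -0.41 to -0.36). For CYLD the value was 0.21 (interval 0.06 to 0.36, adjusted p = 0.179) and for TNIP1 -0.22 (interval -0.37 to -0.07, adjusted p = 0.182). Between TNPR and TNBU 0 members were called by the same 3 tests (0.00822% of all genes by limma-voom). Here 2 members and 2096 of all tested genes had an unadjusted p under 0.05. For TNIP1 the difference was -0.13 (95% interval -0.29 to 0.03), for CYLD 0.19 (0.04 to 0.33) and for TNFAIP2 -0.23 (-0.85 to 0.40).

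The groups that received the SCFA after TNF-α were set against those that received it before. In TNPR vs PRTN, 1 member was lower and 0 higher (0.16% of all genes called), namely TNFAIP2 with -1.59 (SE 0.27, adjusted p = 0.038). In TNBU vs BUTN, 2 members were lower and 0 higher (0.267% of all genes), TNFAIP2 with -1.73 (SE 0.27, adjusted p = 0.0137) and TNFAIP3 with -0.69 (SE 0.05, adjusted p = 0.000137). TNFAIP3 in TNPR vs PRTN was at -0.50 (SE 0.06, adjusted p = 0.00311), with an adjusted p of 0.0586 without PRTN replicate 1. The TNFAIP2 calls were lost by edgeR in TNPR vs PRTN (adjusted p = 0.0705) and without PRTN replicate 1 (0.303), PRTN replicate 2 (0.21) or TNPR replicate 2 (0.14), and in TNBU vs BUTN without BUTN replicate 1 (0.182), BUTN replicate 2 (0.114) or TNBU replicate 2 (0.0788). CYLD, OTULIN and TNIP2 stayed within 0.11 of 0 on the log2 scale in both comparisons. Whether the difference between the times differed between the SCFAs was also tested. By limma-voom 0 of the 8 members and 0 of the 24342 genes (0%) were called, with 0 members by edgeR and DESeq2. For 1 member, TNFAIP3, the unadjusted p by limma-voom was under 0.05 (0.0324), as it was for 935 of all tested genes. The time of TNF-α itself also differed between these groups, since TNPR and TNBU cells were harvested after a further 24 h.

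The rest of the pathway gives the setting of these values. None of the 15 listed members of the A20 complex and other deubiquitinases was called in TN vs Ctrl (median 0.00). In PRTN vs TN 6 of the 15 were higher and 2 lower, where 23.9% of all tested genes were higher and 16.7% lower, and in TNPR vs TN 5 were higher and 3 lower (all genes 24.9% and 16.9%). The same shares of all genes apply to the lists that follow. USP2, a deubiquitinase, rose from 6.48 CPM in TN to 29.4 CPM in PRTN and 29.2 CPM in TNPR (log2 2.19 and 2.18). OTULINL, an OTULIN relative without enzyme activity that is listed under the symbol FAM105A, went from 1.32 to 6.80 and 5.25 CPM (2.35 and 1.97). OTUB1 fell from 94.4 to 50.7 and 50.8 CPM (-0.89 and -0.90) and USP21 from 32.8 to 21.6 and 21.3 CPM. OTUD7A was called higher in both at low levels, with 0.098 CPM in TN, close to 3 counts, 0.404 CPM in PRTN and 0.638 CPM in TNPR.

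Of 13 genes for enzymes that build ubiquitin chains and for their adaptors, 3 rose in TN vs Ctrl. BIRC3, a ubiquitin ligase of the receptor complex, rose by 1.03, BIRC2 by 0.62 and TRAF1, an adaptor at 0.985 CPM in Ctrl, by 1.43 on the log2 scale. BIRC3 rose further in PRTN vs TN (1.22, from 487 to 1130 CPM) and was at 0.50 (adjusted p = 0.000229) in TNPR vs TN, 2 comparisons in which TNFAIP3 fell. TRAF1 fell in PRTN vs TN (-0.92, adjusted p = 0.0128), as did UBE2D3 (-0.66), and in TNPR vs TN 2 fell, UBE2D3 (-0.77) and TRAF5 (-0.70). The 3 subunits of the linear chain assembly complex, RNF31, RBCK1 and SHARPIN, were not called in any comparison with TN or Ctrl. None of the 14 genes of the receptor and kinase complex was called in TN vs Ctrl, but TNFRSF1A, the main TNF-α receptor, was lower in PRTN vs TN (-0.61) and TNPR vs TN (-0.75), while TNFRSF1B, the second receptor, rose from 1.08 CPM in TN to 8.61 and 9.85 CPM. TRADD, an adaptor, rose by 0.67 and 0.69, and IKBKE was lower in TNPR vs TN (-0.88).

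Among 11 NF-κB subunits and IκB proteins 5 rose in TN vs Ctrl, NFKB1 (1.08), RELB (1.05), NFKB2 (1.00), NFKBIA (0.72) and NFKBIE (0.66). In PRTN vs TN 1 of the 11 was higher and 3 lower, and in TNPR vs TN 0 were higher and 5 lower. In these comparisons NFKB1 was lower (-1.69 and -2.36), as were NFKBIA (-1.31 and -1.95) and NFKBID (-1.61 and -1.77), beside -1.15 and -1.65 for TNFAIP3. REL rose in PRTN vs TN (0.69). Of 15 well-known NF-κB target genes used as yardsticks, 12 rose in TN vs Ctrl (median 1.32), with LTB at 2.41, CCL2 at 1.95, CCL20 at 1.92, IL6 at 1.55, ICAM1 at 1.48, VCAM1 at 1.38, SOD2 at 1.32, CSF2 at 1.24, CXCL3 at 1.19, CXCL8 at 0.91, CXCL2 at 0.79 and CD40 at 0.68. In PRTN vs TN 10 of the 15 were lower and 2 higher (median -1.87), and in TNPR vs TN 13 were lower and 2 higher (median -2.43). CSF2 was at -5.75 and -6.15 in these comparisons, VCAM1 at -5.50 and -5.07 and LTB at -2.90 and -5.08, whereas CCL20 (2.09 and 1.68) and TNF (3.24 and 2.08) rose. Among the 15, the paper on these libraries had already named CCL2, CXCL2, CXCL3, CXCL8, IL6, CSF2, LTB, CD40 and VCAM1. It reports them as induced by TNF-α and lowered by SCFAs. Their rises and falls were thus known beforehand and are no separate support. Against Ctrl, 9 of the 15 were lower in PRTN, 6 in BUTN and 10 in each of TNPR and TNBU. Of all tested genes, 16.9%, 14.9%, 16.8% and 16.5% were lower in PRTN, BUTN, TNPR and TNBU. In each of the 4 groups 3 of the 15 were higher, TNF, CCL20 and ICAM1. Of all genes, 22.6%, 22%, 23.6% and 23.6% were higher in the same order, so that count of 3 says little. TNFAIP3 was called higher than Ctrl in PRTN, BUTN and TNBU, and TNIP1 was called lower in PRTN, TNPR and TNBU.

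**Figure D4:**
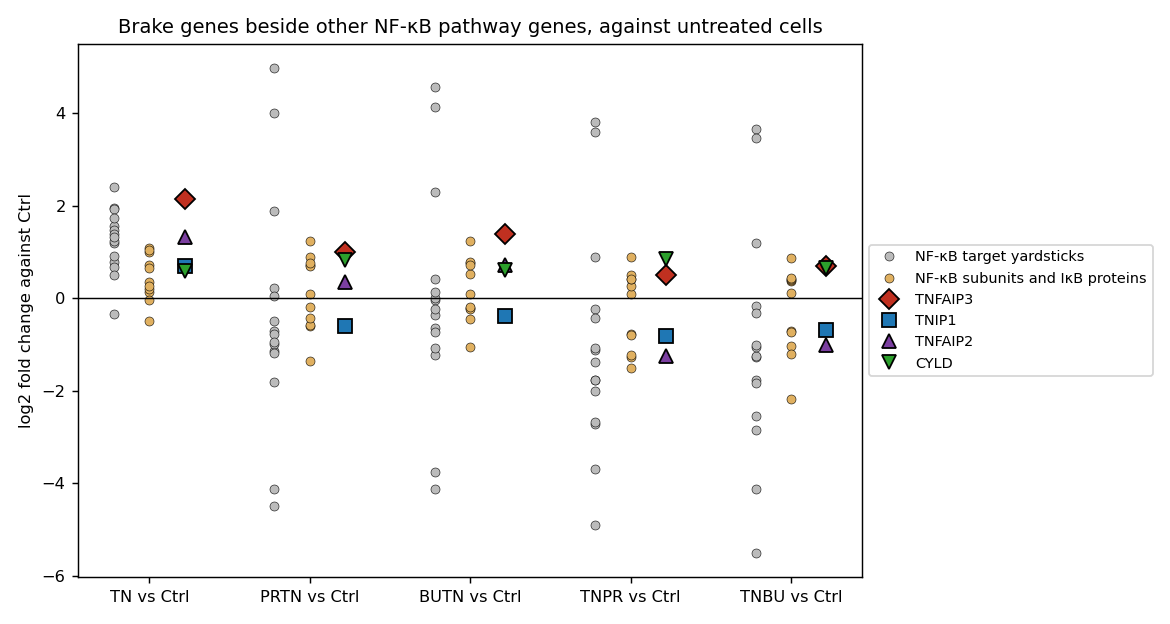
Log2 fold change against Ctrl in the 5 treated groups for 15 NF-κB target yardsticks (grey), 11 NF-κB subunits and IκB proteins (orange) and 4 members (large symbols). TNFAIP3 and CYLD lie above 0 in all 5 comparisons, and TNIP1 lies above 0 in TN vs Ctrl and below 0 in the 4 SCFA groups, as do most of the yardsticks in TNPR and TNBU.

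Markers of other cell types moved together with the SCFA groups as well. The summed level of 6 endothelial markers was 0.372 to 0.618 CPM in Ctrl and TN and 3.10 to 5.30 CPM in the SCFA groups, and that of 6 fibroblast markers was 52.9 to 59.8 CPM and 204 to 256 CPM. In PRTN vs TN, where 23.9% of all tested genes were higher and 16.7% lower, all 5 endothelial markers that were tested were called higher, and of the 6 fibroblast markers 4 were called higher and 1 lower, while KDR and TEK were at 0 in Ctrl and TN. COL1A1 made up most of the fibroblast sum, at 41.4 CPM in TN and 178 CPM in PRTN. For 8 macrophage and monocyte markers the sum was 29.4 to 54.3 CPM over all libraries and was mostly CD68, but against TN 5 of the 7 tested were called higher in both PRTN and BUTN, and 4 in both TNPR and TNBU, with 0 lower by limma-voom. CD14 went from 0.765 CPM in TN to 2.76 CPM in PRTN, CSF1R from 0.146 to 1.11 CPM and TYROBP from 0 to 0.547 CPM. For 6 lymphocyte markers the sum it did not exceed 0.456 CPM, with MS4A1 at 0 in all groups. The summed level of 9 proximal tubule markers was 574 to 624 CPM in Ctrl and TN and 214 to 249 CPM in the SCFA groups. That sum was carried by GGT1 (194 CPM in TN and 64.0 CPM in PRTN) and PAX8 (403 and 158 CPM), whereas 5 of the 8 tested were called higher and 2 lower in each SCFA group against TN, with AQP1 at 0.439 CPM in TN and 8.79 CPM in PRTN and CUBN at 1.28 and 3.03 CPM. For 6 epithelial markers the sum was 1210 to 1310 CPM and 1820 to 2420 CPM, mostly KRT8 and KRT18, with 4 called higher and 1 lower in PRTN vs TN. The part of these shifts in the levels of the 8 members was not tested. Genes were kept for testing on their counts over all 12 libraries. Markers at 0 in Ctrl and TN, such as TEK, AIF1, TYROBP, LRP2 and HNF4A, could be kept only through the SCFA libraries. The counts of tested markers called higher against TN were thus partly fixed beforehand.

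The patterns over the 12 libraries were compared as log2 CPM with those of all tested genes with an established symbol that reached 1 CPM in a group. The genes most like TNFAIP3 were SLC41A2, a magnesium transporter (Pearson r 0.966), SMAD3 of the TGF-β pathway (0.958) and LHFPL2 (0.955), and those most like TNIP1 were AMPD3 (0.986), MAPRE1 (0.985) and DRAM1 (0.983). For TNFAIP2 they were IRF1 (0.978), VHL (0.973) and UBTD2 (0.964), and for CYLD ATP2B1 (0.965), ANKRD27 (0.964) and USP15 (0.963). For OTULIN they were ZNF264 (0.957), RCHY1 (0.952) and TMEM131 (0.951), for TNIP2 GPSM1 (0.959), SLC25A22 (0.943) and MYO1C (0.893), and for TNFAIP8 VAPA (0.953), HMGN4 (0.943) and the pseudogene TMSB4XP6 (0.925). Among the members, r was 0.56 between TNFAIP3 and TNIP1, 0.71 between TNFAIP3 and TNFAIP2 and -0.47 between TNIP1 and CYLD. All points share the 6 groups and the scaling, so these are descriptions over 12 libraries.

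A few exon bases of the members are shared with antisense transcripts. The antisense transcript WAKMAR2 shares 95 exon bases with TNFAIP3 (1.47% of its exons), and CYLD-AS1 shares 54 with CYLD (0.417%). Whether the counting used the strand is not given in the sources used here, so reads in these bases cannot be told apart.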

How the data were processed

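RNA of 12 HK2 libraries was measured as deposited expected counts per gene, which the authors estimated with RSEM (version not given in the sources used here) from reads aligned to GRCh38 with STAR 2.6.1a, after FastQC 0.11.5 per the submitters' processing notes. These values were neither normalized nor rounded, 19.3% are not whole, and replicates were not pooled. Groups came from the library labels.

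Genes with a geometric mean of the count plus 1, minus 1, under 1 were removed (33936). TMM factors (0.913 to 1.06, edgeR 4.0.16) and limma-voom (limma 3.58.1, R 4.3.3) with a mean per group over all 12 libraries gave the tests, with Benjamini-Hochberg adjustment over 24342 genes. A call needed more than 1.5-fold and an adjusted p below 0.05. Scripts were tested on simulated data. Alternatives were edgeR and DESeq2 1.42.0 on rounded counts, other scalings, filters, thresholds and sample choices, a replicate block and leave-one-out fits. A fit of Ctrl, TN, PRTN and BUTN only was chosen after seeing the data. Same-numbered replicates did not deviate together (correlations from -0.0347 to 0.0658 over 15 pairs of groups), so they were not paired. Intervals from counts cover counting error only.

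The members, lists and tests were chosen with earlier results of these data known. All members are named, and from each pathway list the genes called in TN vs Ctrl and the 2 largest rises and falls in PRTN vs TN and TNPR vs TN; the linear chain subunits, cell type markers and ratios were named after their values were seen. Positions are from GENCODE release 44, whereas gene identifiers with their versions are those of the deposited counts, which used an older annotation. Motifs are from RefSeq promoters.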

Additional observations from a re-analysis of the deposited data

Results flagged for a closer look

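The direct test between 2 groups with the same SCFA or the same timing found 5 differences of members at an adjusted p under 0.05 (limma-voom). TNFAIP3 was lower with propionate than with butyrate before TNF-α (PRTN vs BUTN, log2 -0.38, adjusted p = 0.0175), and both PRTN libraries were below both BUTN libraries, but its adjusted p was above 0.05 without any single library of the pair of groups (up to 0.29). It was also lower when the SCFA followed TNF-α than when it preceded it, by -0.50 for propionate (TNPR vs PRTN, adjusted p = 0.00311, and 0.0586 without PRTN replicate 1) and by -0.69 for butyrate (TNBU vs BUTN, adjusted p = 0.000137). By p, TNFAIP3 was the 15th, 9th and 5th of 24342 genes in these 3 comparisons. TNFAIP2 was lower by -1.59 in TNPR vs PRTN and by -1.73 in TNBU vs BUTN, in 2 groups whose TNFAIP2 replicates differed by 2.16-fold (TNPR) and 1.75-fold (TNBU). The doses of the SCFAs and the hours since TNF-α differed between the groups compared.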

How the results depend on the processing

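Of 14 counts of called members, those of TN vs Ctrl and of each SCFA group against TN stayed within 1.5 times under edgeR, DESeq2, both other scalings, both other filters and every fit without 1 library. A count within that range need not hold the same genes. TNFAIP2 was not called in BUTN vs TN by edgeR, DESeq2 or either other scaling. Its calls in BUTN vs TN and TN vs Ctrl were also lost without any single library of the groups compared. In TN vs Ctrl, CYLD came in its place without Ctrl replicate 2 or TN replicate 2. With the adjusted p alone, 6 members were called in PRTN vs TN, 7 in TNPR vs TN, 5 in TNBU vs TN, 5 in BUTN vs Ctrl, 1 in PRTN vs BUTN and 2 in TNPR vs PRTN. Many of the 24342 genes had a low p as well, so these counts say little about the members. An unadjusted p under 0.05 was found for 14781 genes in PRTN vs TN, 15041 in TNPR vs TN and 14939 in TNBU vs TN. It was found for 14200 genes in BUTN vs Ctrl, 3418 in PRTN vs BUTN and 2729 in TNPR vs PRTN. With a fold over 2 the counts by limma-voom were 1 in BUTN vs TN, 0 in PRTN vs Ctrl (TNFAIP3 at 1.00 being nearest), 1 in BUTN vs Ctrl, 2 in TNPR vs Ctrl, 2 in TNBU vs Ctrl and 1 in TNBU vs BUTN. The shares of all genes called with the adjusted p alone or with a fold over 2 are not given here. In TNPR vs PRTN the count was 0 by edgeR, with the default edgeR filter and with only the groups compared, and in TNBU vs BUTN it was 0 with only the groups compared, which leaves fewer samples. Without 1 library the counts ranged from 1 to 3 in BUTN vs Ctrl (1 without Ctrl replicate 1 or BUTN replicate 1), from 0 to 1 in TNPR vs PRTN (0 without PRTN replicate 1, PRTN replicate 2 or TNPR replicate 2) and from 1 to 2 in TNBU vs BUTN (1 without BUTN replicate 1, BUTN replicate 2 or TNBU replicate 2).

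The replicate block left all 14 counts as they were, with 3 members in TN vs Ctrl and 3 in PRTN vs TN, although the numbers do not pair the libraries. Small values turned their sign: with library size alone OTULIN was at -0.02 in TN vs Ctrl, TNIP2 at 0.11 in BUTN vs TN and 0.04 in TNBU vs TN, TNFAIP8 at 0.03 in BUTN vs TN and TNIP3 at 0.00 in TNPR vs TN, and with the default edgeR filter CYLD was at 0.00 in BUTN vs TN. Without 1 library, OTULIN ranged from -0.04 to 0.12 in TN vs Ctrl, CYLD from -0.07 to 0.08 in BUTN vs TN and from -0.02 to 0.13 in TNBU vs TN, TNIP3 from -0.03 to 2.36 in PRTN vs Ctrl and from -0.69 to 0.28 in TNPR vs TN, and TNFAIP2 from -0.80 to 0.32 in TNPR vs TNBU. None of these was called. In the fit of Ctrl, TN, PRTN and BUTN only, CYLD was called in TN vs Ctrl (0.60, adjusted p = 0.000772). The cause of these changes was not tested. With 2 replicates a group, the fits share the spread over all groups, and a lone library is assumed to vary like the others.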

Other observations

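Of 5 relatives of the TNFAIP and TIPE families, none was called in TN vs Ctrl by limma-voom. TNFAIP6, a secreted hyaluronan-binding protein, was at 0.0874 CPM in Ctrl and 0.44 CPM in TN (adjusted p = 0.118), against a range of 3 counts of 0.0867 to 0.112 CPM. TNFAIP8L1, a relative of TNFAIP8, rose by 0.79 in PRTN vs TN (from 16.8 to 29.2 CPM) and by 0.62 in TNPR vs TN (25.8 CPM). TNFAIP8L3 was at 0.0186 CPM in TN, under 3 counts, and at 0.385 CPM in PRTN and 0.849 CPM in TNPR. TNFAIP8 itself did not move by 1.5-fold in these comparisons.

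Of 10 housekeeping genes, none was called in TN vs Ctrl. ACTB was lower by -0.71 in PRTN vs TN and HPRT1 by -0.69, and in TNPR vs TN HPRT1 (-0.68) and YWHAZ (-0.61) were lower, while RPLP0 was at -0.15 and -0.18.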
